A study of Mus musculus with 12 samples.

Results

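The genes described here are the secreted Wnt ligands, their Frizzled receptors and the secreted Sfrp and Dkk inhibitors of the mouse, measured by RNA sequencing in C3H/10T1/2 cells. Members were taken by symbol: every gene named Wnt, Fzd, Sfrp or Dkk with the usual number. This gave 37 of the 47643 genes in the deposited counts, made up of 19 Wnt ligands, 10 Frizzled receptors, 4 Sfrp genes and 4 Dkk genes. Of the 37 members, 31 had at least 1 count in some library and 6 had none in all 12 libraries. After a filter on low counts, 17 members could be tested: 4 ligands, 9 receptors, 2 Sfrp genes and 2 Dkk genes.

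C3H/10T1/2 is an established line from mouse embryo with fibroblast morphology, for which the labels also give the term sarcoma. Cells received plasmid DNA by transient non-viral transfection at 0.5 µg per cm2 with TurboFect, the medium was changed after 4 h, and RNA was taken 3 days later. The groups, with 3 libraries each, were the hybrid plasmids BMP2ADV20a, BMP2ADV148b and BMP2ADV590, which the series title describes as joining BMP2 to a miRNA, and the plasmid BMP2ADV, the BMP2 group that the design text names as the reference. All 4 groups therefore carried BMP2 plasmid, and no group of untransfected cells or of cells with empty plasmid was analysed here. No label states that replicates were grown and transfected separately; p-values thus measure only how these libraries spread, which may be technical.

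Wnt proteins are secreted lipid-modified ligands that bind Frizzled receptors at the cell surface. With the co-receptors Lrp5 and Lrp6 this stabilises beta-catenin, which enters the nucleus and activates genes with TCF/LEF factors, while other ligands, Wnt5a among them, act mainly through planar polarity and calcium routes. Sfrp proteins resemble the Frizzled ligand-binding domain and bind Wnts outside the cell, whereas Dkk proteins act on the Lrp co-receptors; in the skeleton the beta-catenin route favours osteoblasts over chondrocytes and fat cells.

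The number in each hybrid plasmid's name was read as the name of a miRNA. A miRNA represses transcripts that pair with its seed, bases 2 to 8, so the mature mouse sequences, credited to RefSeq (GRCm38.p6), are shown with the seed in capitals. The labels do not give the arm or the precursor in the plasmid, and the usual guide arm is shown. The sources used here held no mature mouse miR-590 sequence, so no seed word was searched for BMP2ADV590.
mmu-miR-20a-5p: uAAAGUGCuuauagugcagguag
mmu-miR-148b-3p: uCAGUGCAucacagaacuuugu
The seeds differ, so the pair do not share target words. The word that pairs with the whole miR-20a-5p seed is GCACTTT and that for miR-148b-3p is TGCACTG; both were searched on the transcript strand of the longest annotated 3' untranslated region of each gene. GCACTTT was found in 2 of the 17 tested members, Fzd3 and Fzd8, and in 15.1% of the 11578 tested genes with such a region. TGCACTG was found in 2 of the 17, Wnt5a and Fzd4, and in 15.7% of the same genes. The median length of the searched region was 2194 bases for the 17 members and 1219 bases for the 11578 genes, and the shares are not corrected for length. Stretches of Fzd3, Wnt5a and Fzd4 are shown with the seed match in capitals, to be set beside the levels given further on.
Fzd3 for miR-20a-5p, chr14:65192538-65192544, minus strand: ttttcttaGCACTTTaactgtga
Wnt5a for miR-148b-3p, chr14:28526990-28526996, plus strand: taaatcacTGCACTGttactgta
Fzd4, first site for miR-148b-3p, chr7:89409103-89409109, plus strand: ttttttttTGCACTGcagcatgc
Fzd4, second site for miR-148b-3p, chr7:89410472-89410478, plus strand: acacgcccTGCACTGcttacaga
A match of letters is a description of the transcript and not a measured binding site.

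The libraries held between 9236431 and 14727288 counts on genes. Members took 4766 to 9255 of these counts per library. Levels are given as CPM, gene counts scaled to a common library size with TMM factors; each read marks the 3' end of a transcript, so a CPM value is not divided by gene length. The fibroblast markers summed to between 16761 and 19561 CPM in all 12 libraries. Lists for chondrocytes, epithelium and osteoblasts summed to higher levels than the lists that follow here, and are given further on. The lists for fat cells, macrophages, endothelium and neural cells summed to low levels over the same libraries: 3.52 to 14.8 CPM for 4 fat cell markers, nearly all of it Fabp4, 1.33 to 3.5 CPM for 4 macrophage markers (Cd68 and Csf1r), 4.80 to 11.4 CPM for 3 endothelial markers (mostly Tek) and 8.43 to 27.3 CPM for 3 neural markers (mostly Tubb3). In each of these lists a marker had no count in any library: Plin1, Adgre1, Cdh5 and Sox10. The remaining markers of these lists had some counts. Adipoq reached 1.38 CPM, Cfd 0.15 CPM and Ptprc 0.41 CPM, each with no count in some libraries. Pecam1 lay between 0.49 and 1.04 CPM and Gfap between 0.37 and 1.63 CPM. Counts on the mouse Bmp2 gene averaged 3.396 ± 0.69 CPM with BMP2ADV20a, 5.36 ± 2.58 CPM with BMP2ADV148b and 5.05 ± 0.69 CPM with BMP2ADV590, against 1.30 ± 0.53 CPM with BMP2ADV (SD, n = 3 each). The log2 fold changes were 1.35 (edgeR adjusted p = 0.16), 2.00 (adjusted p = 0.0326) and 1.91 (adjusted p = 0.0021) in that order of hybrids. The call with BMP2ADV148b was lost in 5 of 12 fits with a library left out, the omitted library being any of BMP2ADV or the second or the third of BMP2ADV148b (adjusted p up to 0.212). Transcripts from a plasmid copy and from the cells' own Bmp2 gene were not told apart, so these values are not a measure of plasmid dose. The part of Bmp2 in the results was not tested. The Mir148b gene itself had 21.5 to 22.8 CPM in the 3 BMP2ADV148b libraries and no count in the other 9.

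The receptors were by far the most abundant members, and the ligands were scarce. Frizzled counts summed to between 421 and 549 CPM per library, Sfrp counts to between 49.5 and 85.0 CPM, Wnt ligand counts to between 16.9 and 26.4 CPM, and Dkk counts to between 1.30 and 3.68 CPM. A single gene led most of these sums: Fzd2 made up 40.2% to 51.0% of the Frizzled sum, and Wnt5a 68.9% to 84.3% of the ligand sum. In bulk RNA, fewer cells expressing a gene and less RNA per cell cannot be told apart.

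**Figure D1:**
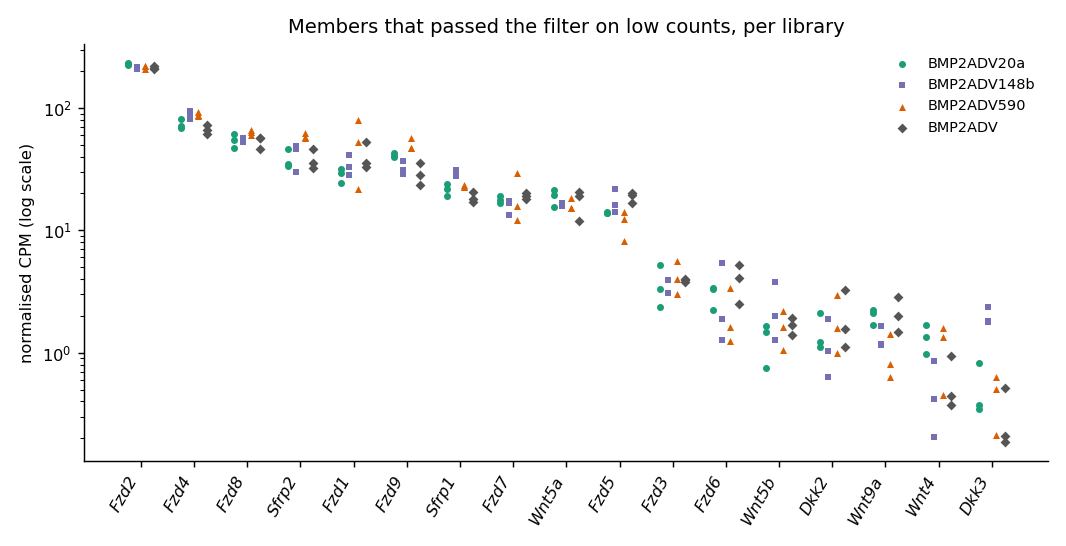
Normalised CPM (log scale) of the 17 tested members, ordered by their mean over 12 libraries; each point is 1 library and groups run from the hybrid plasmids to BMP2ADV. Fzd2 lies above all other members in every library, between 207 and 233 CPM, and the 7 members from Fzd3 onwards lie under 6 CPM in every library.

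Among the ligands, Wnt5a was the one with a substantial level. It had 21.5, 15.6 and 19.4 CPM with BMP2ADV20a, 15.9, 16.8 and 16.8 CPM with BMP2ADV148b and 15.2, 18.3 and 15.1 CPM with BMP2ADV590, against 11.98, 18.9 and 20.4 CPM with BMP2ADV. The 4 groups overlapped throughout. The log2 fold changes against BMP2ADV were 0.15 (95% interval -0.22 to 0.51) with BMP2ADV20a, -0.04 (-0.42 to 0.33) with BMP2ADV148b and -0.07 (-0.44 to 0.30) with BMP2ADV590, and none was called. The Wnt5a transcript holds the miR-148b-3p word shown above, and its interval with BMP2ADV148b reaches down to -0.42. Annotated genes overlap Wnt5a (Gm2670), Wnt5b (the coding gene Fbxl14), Fzd3 (Gm9086) and Fzd6 (Gm26704) on the opposite strand, and no source used here gives the strand setting of the counting, so their counts are uncertain to that extent.

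The other ligands were close to the limit of what this depth could measure. Wnt5b, the close relative of Wnt5a, had 1.29 ± 0.48 CPM with BMP2ADV20a, 2.35 ± 1.29 CPM with BMP2ADV148b and 1.62 ± 0.57 CPM with BMP2ADV590, against 1.66 ± 0.27 CPM with BMP2ADV (SD, n = 3 each). Per library these were 1.47, 1.65 and 0.75 CPM with BMP2ADV20a, 3.79, 1.27 and 2.00 CPM with BMP2ADV148b and 1.06, 1.61 and 2.20 CPM with BMP2ADV590, against 1.92, 1.39 and 1.68 CPM with BMP2ADV. All groups overlapped for Wnt5b. Wnt9a, a ligand of the beta-catenin route known from developing joints, had 2.10, 2.24 and 1.69 CPM with BMP2ADV20a, 1.64, 1.17 and 1.16 CPM with BMP2ADV148b and 1.41, 0.63 and 0.80 CPM with BMP2ADV590, against 2.00, 2.87 and 1.47 CPM with BMP2ADV. The 3 BMP2ADV590 libraries lay below the 3 BMP2ADV libraries, by a log2 fold change of -1.12 ± 0.48 (SE) that was not called (edgeR adjusted p = 0.164). Wnt4, known from kidney and gonad development, averaged 1.34 CPM with BMP2ADV20a against 0.59 CPM with BMP2ADV, a log2 fold change of 1.20 that was likewise not called (edgeR adjusted p = 0.559); its interval, -0.14 to 2.53, spans 0.

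A further 11 ligands had a few counts and were not tested. Wnt2 had 41 counts over all 12 libraries, Wnt11 had 17, Wnt7b 16, Wnt1 12, Wnt8b 11 and Wnt6 8 counts, while Wnt16, Wnt8a, Wnt3, Wnt10a and Wnt10b had between 2 and 5. Wnt2b, Wnt3a, Wnt7a and Wnt9b had no count in any library, which allows a level of up to 0.022 CPM each over the 12 libraries (3 counts, counting error only). Wnt3a and Wnt9a lie 16176 bases apart on chromosome 11 in opposite directions, and of that pair only Wnt9a was detected. Of the genes of a second such pair, Wnt10b and Wnt1 on chromosome 15, neither exceeded 5 counts in a library.

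Of the 10 Frizzled receptors, 9 were detected and tested, and Fzd10 had no count. By mean CPM over the 12 libraries the order was Fzd2 at 217, Fzd4 at 79.0, Fzd8 at 56.1, Fzd1 at 38.7, Fzd9 at 38.2, Fzd7 at 18.02, Fzd5 at 15.4, Fzd3 at 3.78 and Fzd6 at 2.97 CPM. These levels are not corrected for length, and neighbours in the order mostly overlapped. Fzd2 stood clear of Fzd4, with at least 207 CPM per library beside at most 93.6 CPM, and Fzd5 stood clear of Fzd3, with at least 8.15 CPM beside at most 5.65 CPM. Fzd2 varied little: it had 227, 223 and 233 CPM with BMP2ADV20a, 209, 211 and 215 CPM with BMP2ADV148b and 221, 220 and 207 CPM with BMP2ADV590, against 212, 220 and 207 CPM with BMP2ADV. Its log2 fold changes were 0.10, -0.01 and 0.02 in that order of hybrids, with 95% intervals within -0.15 to 0.24.

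With BMP2ADV590, 4 of the 17 tested members differed from BMP2ADV: Fzd9, Fzd4 and Sfrp2 were higher and Fzd5 was lower (edgeR quasi-likelihood test, Benjamini-Hochberg adjusted p under 0.05 over all 13229 genes tested). The background in this comparison was 8.26% of all tested genes called, 4.37% higher and 3.89% lower. The median log2 fold change of the 17 was 0.111, beside 0.00196 for all tested genes, and 7 of the 17 had an unadjusted p under 0.05, beside 21.2% of all genes. Without BMP2ADV replicate 3 only Fzd9 was called of the 17, and without BMP2ADV590 replicate 2, a library described further on, 4 were called, 3 of them the same.

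Fzd9, a receptor encoded by 1 coding exon that is known in mice to be needed by osteoblasts for full bone mass, had the strongest evidence. It had 47.4, 56.7 and 47.2 CPM with BMP2ADV590, against 35.6, 28.1 and 23.4 CPM with BMP2ADV. The groups did not overlap, and the log2 fold change was 0.79 ± 0.13 (SE), a 1.73-fold higher level (edgeR adjusted p = 4.89e-04). With BMP2ADV20a it had 39.6, 40.7 and 42.6 CPM and with BMP2ADV148b 28.7, 37.0 and 31.2 CPM, so the BMP2ADV20a libraries also lay above the BMP2ADV libraries and the BMP2ADV148b libraries overlapped them. Neither of those differences was called, with log2 fold changes of 0.49 ± 0.13 (edgeR adjusted p = 0.131) and 0.15 ± 0.14 (edgeR adjusted p = 0.822). With a library left out, the BMP2ADV20a difference was called in 1 of 12 fits, that without BMP2ADV replicate 1 (0.67, edgeR adjusted p = 0.0468). Over the 12 fits it ranged from 0.36 to 0.67, with adjusted p up to 0.468.

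Fzd4, the receptor of Norrin as well as of Wnts and known for its role in retinal vessels, had 92.2, 87.7 and 86.2 CPM with BMP2ADV590, against 65.6, 73.2 and 61.4 CPM with BMP2ADV. Every BMP2ADV590 library lay above every BMP2ADV library, and the log2 fold change was 0.41 ± 0.10 (SE; edgeR adjusted p = 0.00771). Without BMP2ADV replicate 3 the value was 0.36 and was no longer called (adjusted p = 0.0582). With BMP2ADV148b, for whose miRNA both Fzd4 seed words are shown above, Fzd4 had 81.7, 85.2 and 93.6 CPM, also above every BMP2ADV library, with a log2 fold change of 0.38 ± 0.10 (SE; edgeR adjusted p = 0.126). That difference was called in 2 of 5 alternative fits, by DESeq2 (adjusted p = 0.0302) and by edgeR with no filter on low counts (adjusted p = 0.049). With a library left out it was called in 0 of 12 fits (edgeR adjusted p up to 0.521). With BMP2ADV20a it had 71.4, 68.3 and 81.8 CPM, which overlapped BMP2ADV.

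Fzd5, a receptor of the beta-catenin route encoded on chromosome 1, was the member that fell. It had 14.2, 8.15 and 12.3 CPM with BMP2ADV590, against 19.3, 16.9 and 20.3 CPM with BMP2ADV. Every BMP2ADV590 library lay below every BMP2ADV library, with the lowest value in BMP2ADV590 replicate 2, and the log2 fold change was -0.70 ± 0.19 (SE; edgeR adjusted p = 0.0213). The difference was no longer called without BMP2ADV590 replicate 2 (-0.50, adjusted p = 0.103), without BMP2ADV replicate 1 (-0.68, adjusted p = 0.0592) or without BMP2ADV replicate 3 (-0.64, adjusted p = 0.0914). With BMP2ADV20a the 3 libraries were close together at 13.9, 13.8 and 14.2 CPM, below every BMP2ADV library, but the log2 fold change of -0.43 ± 0.19 was not called (edgeR adjusted p = 0.454). BMP2ADV148b had 21.7, 16.2 and 13.99 CPM and overlapped BMP2ADV. An annotated gene, Gm38058, overlaps Fzd5 on the opposite strand, so the limit on strand given for Wnt5a holds for Fzd5 too.

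**Figure D2:**
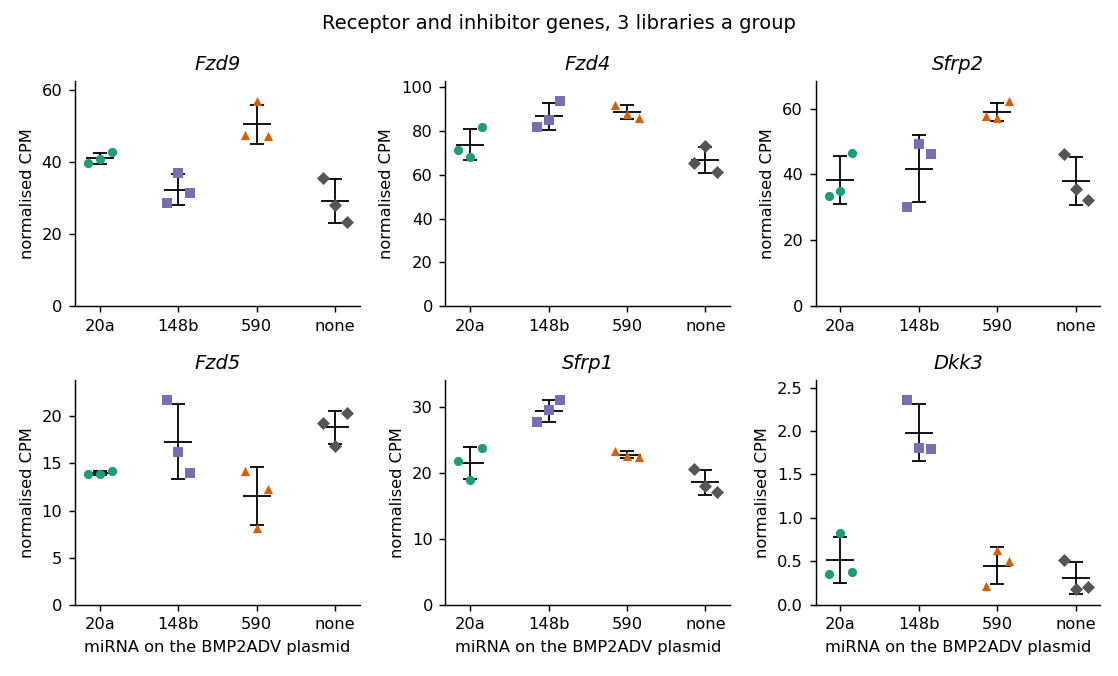
Normalised CPM per library (points) with group mean and SD (bars, n = 3) for the 5 members called in some comparison and for Dkk3; groups are BMP2ADV20a, BMP2ADV148b, BMP2ADV590 and BMP2ADV (none). Fzd9, Fzd4 and Sfrp2 are higher with BMP2ADV590 than with BMP2ADV and Fzd5 is lower, and Sfrp1 and Dkk3 have their highest libraries with BMP2ADV148b.

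Fzd8 and Fzd1 were abundant but were not called. Fzd8 had 46.6, 61.0 and 54.8 CPM with BMP2ADV20a, 52.3, 52.4 and 57.2 CPM with BMP2ADV148b and 60.4, 66.3 and 63.1 CPM with BMP2ADV590, against 56.6, 56.4 and 46.2 CPM with BMP2ADV. The BMP2ADV590 libraries lay above those of BMP2ADV by a log2 fold change of 0.25 ± 0.11 (SE; edgeR adjusted p = 0.176). With BMP2ADV20a, whose miRNA has its seed word in Fzd8 and Fzd3, Fzd8 averaged 54.2 ± 7.2 CPM against 53.1 ± 6.0 CPM with BMP2ADV, and Fzd3 averaged 3.64 ± 1.47 CPM against 3.89 ± 0.11 CPM (SD, n = 3 each); neither was called. Fzd6, a scarce receptor known in mice for hair and planar polarity, had 1.62, 1.25 and 3.40 CPM with BMP2ADV590, against 2.51, 4.08 and 5.24 CPM with BMP2ADV; the groups overlapped and the log2 fold change of -0.92 ± 0.47 (SE) was not called (edgeR adjusted p = 0.267).

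Fzd1 and Fzd7, closely related receptors that can both signal through beta-catenin, are given because of 1 group with a wide spread, and were picked out after their values were seen. Fzd1 had 79.8, 22.0 and 53.0 CPM in the 3 BMP2ADV590 libraries, against 52.7, 35.7 and 32.9 CPM with BMP2ADV. Fzd7 had 29.3, 12.2 and 15.9 CPM in the same BMP2ADV590 libraries, against 18.2, 19.0 and 20.2 CPM with BMP2ADV. In both genes replicate 1 of BMP2ADV590 was the highest and replicate 2 the lowest of all 12 libraries. These libraries also differed most in their counts over all genes, with a chi-square per degree of freedom of 29.4. The other pairs within a group, over all 4 groups, lay between 6.38 and 19.5, the highest being replicates 1 and 3 of BMP2ADV. Gm42418, a gene known to collect ribosomal RNA reads, took 4.99% of gene counts in replicate 1 and 8.99% in replicate 2. Both values lie within the range of the 12 libraries, 4.07% to 10.04%, with the highest in BMP2ADV replicate 3. The part of Gm42418 in the result was not tested.

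For Fzd1 the log2 fold change of BMP2ADV590 against BMP2ADV was 0.35 ± 0.26 (SE; edgeR adjusted p = 0.491). It was 0.71 and called without BMP2ADV590 replicate 2 (adjusted p = 0.00932) and -0.13 without BMP2ADV590 replicate 1 (adjusted p = 0.83), so single libraries decide its sign and its call. For Fzd7 the log2 fold change was 0.02 ± 0.21 with all libraries and -0.45 without BMP2ADV590 replicate 1 (adjusted p = 0.134). The other groups were narrower for Fzd1, at 24.4, 31.5 and 29.4 CPM with BMP2ADV20a and 28.5, 41.4 and 32.8 CPM with BMP2ADV148b.

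**Figure D3:**
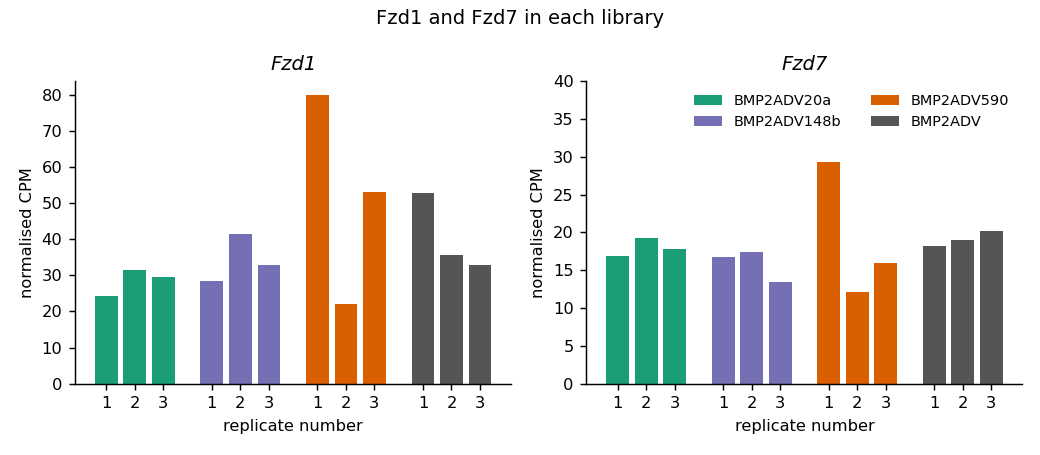
Normalised CPM of Fzd1 and Fzd7 in each of the 12 libraries, 1 bar a library, with groups from the hybrid plasmids to BMP2ADV. In both genes the BMP2ADV590 libraries hold the highest bar (79.8 and 29.3 CPM, replicate 1) and the lowest bar (22.0 and 12.2 CPM, replicate 2).

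Of the secreted inhibitors, Sfrp2 and Sfrp1 were the abundant members, and each was called against BMP2ADV with a different hybrid plasmid. Between those 2 plasmids neither was called: BMP2ADV590 minus BMP2ADV148b was 0.50 for Sfrp2 (edgeR adjusted p = 0.0722) and -0.37 for Sfrp1 (edgeR adjusted p = 0.117). This Sfrp2 difference was called in 2 of 5 alternative fits, by DESeq2 (adjusted p = 0.0484) and by edgeR with no filter (adjusted p = 0.00229). With a library left out it was called in 0 of 12 fits (edgeR adjusted p up to 0.431). Sfrp2 had 57.9, 57.1 and 62.2 CPM with BMP2ADV590, against 46.2, 35.7 and 32.2 CPM with BMP2ADV. All 3 BMP2ADV590 libraries lay above those of BMP2ADV, and the log2 fold change was 0.63 ± 0.16 (SE), a 1.54-fold higher level (edgeR adjusted p = 0.0125). The call was lost without BMP2ADV replicate 2 (0.58, adjusted p = 0.0707), without BMP2ADV replicate 3 (0.52, adjusted p = 0.0889) and without BMP2ADV590 replicate 3 (0.59, adjusted p = 0.0528). With BMP2ADV20a, Sfrp2 had 33.5, 34.9 and 46.6 CPM, and with BMP2ADV148b 30.1, 49.1 and 46.2 CPM, both overlapping BMP2ADV. The annotation places Gm26771 on the opposite strand over Sfrp2, so the same limit on strand applies.

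Sfrp1 was higher with BMP2ADV148b, the single member called in that comparison, where 0.249% of all tested genes were called. It had 27.6, 29.6 and 31.0 CPM with BMP2ADV148b, against 20.6, 17.98 and 17.1 CPM with BMP2ADV. There was no overlap between the groups, and the log2 fold change was 0.66 ± 0.13 (SE), a 1.58-fold higher level (edgeR adjusted p = 0.0391). Although its size stayed between 0.61 and 0.75 with each of the 12 libraries left out in turn, the call was lost in 8 of these 12 fits: without any 1 of the 3 BMP2ADV148b or the 3 BMP2ADV libraries, without BMP2ADV20a replicate 1 and without BMP2ADV590 replicate 3. With BMP2ADV590 it had 23.4, 22.5 and 22.4 CPM, also above every BMP2ADV library, by a log2 fold change of 0.29 ± 0.13 that was not called (edgeR adjusted p = 0.203); with BMP2ADV20a it had 21.8, 18.9 and 23.8 CPM, which overlapped. Sfrp4 had 3, 4 and 1 counts with BMP2ADV20a, 0, 12 and 3 counts with BMP2ADV148b and 3, 2 and 3 counts with BMP2ADV590, against 1, 0 and 0 counts with BMP2ADV, and Sfrp5 had 4 counts over the 12 libraries; neither was tested.

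Dkk genes were nearly silent. Dkk2, which binds the Lrp co-receptors, had 1.119, 2.10 and 1.22 CPM with BMP2ADV20a, 1.02, 0.64 and 1.89 CPM with BMP2ADV148b and 2.96, 0.99 and 1.60 CPM with BMP2ADV590, against 1.55, 1.11 and 3.25 CPM with BMP2ADV. All groups overlapped for Dkk2. Dkk1, the best known inhibitor of bone formation in the family, had 2 counts in BMP2ADV590 replicate 2 and none in the other 11 libraries, and Dkk4 had none.

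Dkk3, a divergent member of the family that is not an established Lrp ligand, had the largest difference among the members, at a very low level. It had 23, 17 and 17 counts with BMP2ADV148b, against 7, 2 and 2 counts with BMP2ADV; in CPM these were 2.36, 1.80 and 1.79 with BMP2ADV148b, against 0.52, 0.19 and 0.21 with BMP2ADV. The groups did not overlap, and the BMP2ADV20a and BMP2ADV590 libraries, at 0.35 to 0.82 CPM and 0.21 to 0.63 CPM, also lay below those of BMP2ADV148b. The log2 fold change against BMP2ADV was 2.60 ± 0.66 (SE; 95% interval 1.23 to 3.97), which was not called after adjustment over all genes (edgeR unadjusted p = 6.63e-04, adjusted p = 0.127).

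With BMP2ADV20a no member was called in either direction by edgeR or by DESeq2 on the filtered genes, in a comparison where 0.476% of all tested genes were called. Of the 17 tested members 2, Fzd9 and Fzd5, had an unadjusted edgeR p under 0.05, beside 9.87% of all genes. The median log2 fold change of the 17 was -0.00108, beside -0.00179 for all tested genes. Between BMP2ADV148b and BMP2ADV, 3 of the 17 had such a p, beside 8.43% of all genes, and the medians were -0.0431 for the 17 and -0.000355 for all tested genes. The 3 comparisons share the BMP2ADV libraries, so their values are not independent of each other.

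**Figure D4:**
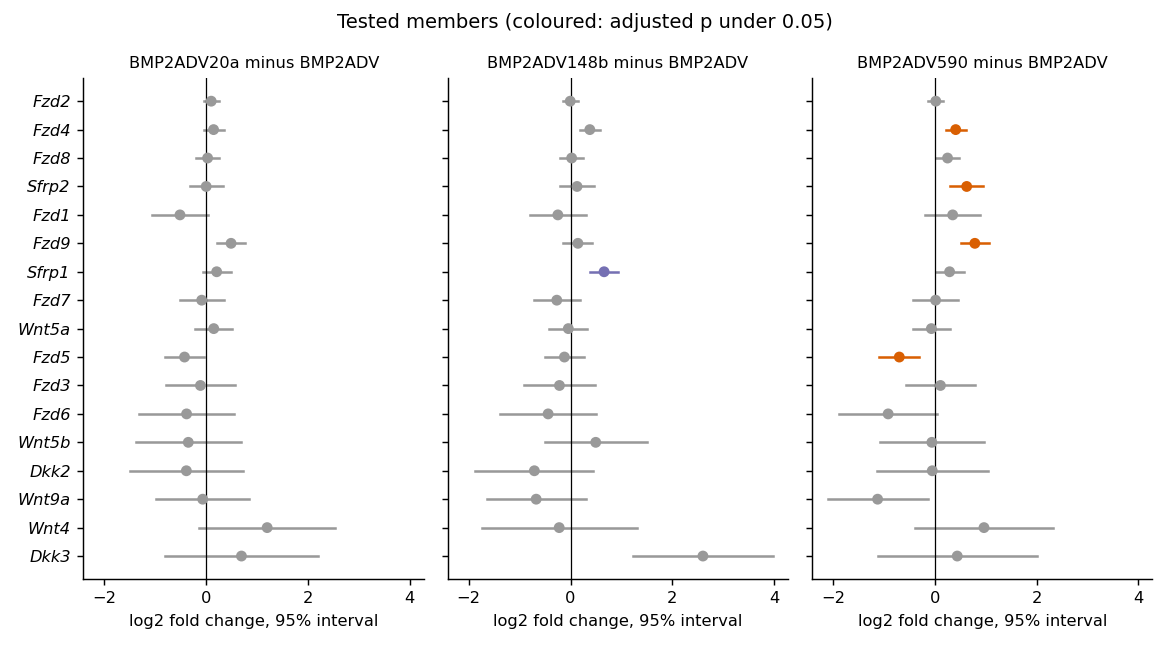
Log2 fold change (points) with 95% interval (lines) of the 17 tested members in each hybrid plasmid minus BMP2ADV; coloured members had an adjusted p under 0.05. Coloured are Fzd4, Sfrp2, Fzd9 and Fzd5 with BMP2ADV590 and Sfrp1 with BMP2ADV148b, and intervals widen down the list as counts fall.

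The hybrid plasmids were also compared with each other, which does not use the BMP2ADV libraries in the fold change. Sfrp2 averaged 59.0 ± 2.7 CPM with BMP2ADV590 and 38.3 ± 7.2 CPM with BMP2ADV20a (SD, n = 3 each). The libraries did not overlap, and the log2 difference was 0.63 ± 0.16 (SE; edgeR adjusted p = 0.0318). Sfrp2 was the single member called between these plasmids, where 2.17% of all tested genes were called. The call was lost without BMP2ADV590 replicate 1 or 3 and without BMP2ADV20a replicate 1 or 2, with differences of 0.53 to 0.63.

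Fzd9 averaged 50.4 ± 5.5 CPM with BMP2ADV590 and 32.3 ± 4.3 CPM with BMP2ADV148b (SD, n = 3 each). The libraries did not overlap, and the log2 difference was 0.64 ± 0.14 (SE; edgeR adjusted p = 0.00491). It was the single member called there, where 4.43% of all tested genes were called. Without BMP2ADV148b replicate 1 the difference was 0.56 and was not called (adjusted p = 0.0611). Dkk3 averaged 0.45 CPM with BMP2ADV590 and 1.98 CPM with BMP2ADV148b, a log2 difference of -2.16 ± 0.64 just short of the threshold (edgeR adjusted p = 0.0527).

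Between BMP2ADV148b and BMP2ADV20a no member was called by edgeR or DESeq2, where 0.559% of all tested genes were called, and 5 members had an unadjusted edgeR p under 0.05, beside 7.79% of all genes. Sfrp1 averaged 29.4 ± 1.7 CPM with BMP2ADV148b and 21.5 ± 2.4 CPM with BMP2ADV20a (SD, n = 3 each), a log2 difference of 0.46 ± 0.13 that was not called (edgeR adjusted p = 0.182). Fzd9 averaged 50.4 ± 5.5 CPM with BMP2ADV590 and 41.0 ± 1.5 CPM with BMP2ADV20a, and this difference of 0.30 ± 0.13 was not called either (edgeR adjusted p = 0.291).

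The rest of the Wnt pathway was read from 5 lists with 81 further genes, of which 61 were tested. With BMP2ADV590, 5 of the 61 were higher and 4 lower than with BMP2ADV, where 4.37% of all tested genes were higher and 3.89% lower. With BMP2ADV20a, 1 was lower, where 0.476% of all tested genes were called. With BMP2ADV148b none was called (0 by DESeq2); 6 had an unadjusted edgeR p under 0.05, beside 8.43% of all tested genes. Some genes stand in more than 1 list.

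At the co-receptor level, 1 of 11 tested genes was called with BMP2ADV590, a share close to the 8.26% of all tested genes. Lrp6, the co-receptor of the beta-catenin route, had 96.1, 61.8 and 69.8 CPM with BMP2ADV590, against 54.7, 56.8 and 49.5 CPM with BMP2ADV. No overlap was seen between the groups, with replicate 1 of BMP2ADV590 well above the others, and the log2 fold change was 0.50 ± 0.13 (SE; edgeR adjusted p = 0.0163). Without that library it was 0.29 and not called (adjusted p = 0.163), nor was it called without BMP2ADV replicate 3 (0.45, adjusted p = 0.0901). Among ligand export genes and other secreted modulators, 1 of 7 tested genes was called, beside the same 8.26%. This was Frzb, also known as Sfrp3, which shares the Frizzled-like domain of the Sfrp family and is a classic cartilage gene. Frzb had 55.2, 54.7 and 40.4 CPM with BMP2ADV590, against 27.4, 19.7 and 19.3 CPM with BMP2ADV. The groups did not overlap, and the log2 fold change was 1.18 ± 0.21 (SE; edgeR adjusted p = 6.00e-04).

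Within the beta-catenin route, 3 of 25 tested genes were higher and none was lower with BMP2ADV590, beside 4.37% and 3.89% of all tested genes, and all 3 differences were small. The TCF factors Tcf7l1 and Tcf7l2 averaged 283 and 353 CPM with BMP2ADV590, against 220 and 262 CPM with BMP2ADV, with log2 fold changes of 0.36 and 0.43. Tcf7l2 had 305, 302 and 313 CPM with BMP2ADV20a, also above every BMP2ADV library, but was not called there, and with BMP2ADV148b it overlapped BMP2ADV. The Tcf7l1 call was lost without BMP2ADV replicate 3 (0.27, adjusted p = 0.0913) and without BMP2ADV590 replicate 2 (0.28, adjusted p = 0.0551). Gsk3a, a kinase that marks beta-catenin for destruction, averaged 49.9 ± 5.7 CPM with BMP2ADV590 and 37.3 ± 2.9 CPM with BMP2ADV (SD, n = 3 each; log2 fold change 0.42, edgeR adjusted p = 0.0308), and leaving out BMP2ADV replicate 1, 2 or 3, or BMP2ADV590 replicate 2 or 3, ended the call (0.33 to 0.46). Beta-catenin itself, Ctnnb1, averaged 859 ± 8 CPM with BMP2ADV590 and 810 ± 37 CPM with BMP2ADV, a log2 fold change of 0.08 that was not called (edgeR adjusted p = 0.532). Lef1 averaged 12.3 CPM with BMP2ADV590 and 9.84 CPM with BMP2ADV and was not called (log2 fold change 0.32, edgeR adjusted p = 0.423).

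Of 14 tested genes that are known in various tissues as targets of the beta-catenin route, 4 were lower and none was higher with BMP2ADV590, beside 3.89% and 4.37% of all tested genes; the list's median log2 fold change was -0.404, beside 0.00196 for all tested genes. The 4 were Ccnd1, which encodes cyclin D1, the matricellular genes Ccn4 and Ccn5 (also known as Wisp1 and Wisp2) and the AP-1 gene Fosl1. All 4 also answer to growth factor signals other than Wnt. Ccnd1 had 381, 336 and 414 CPM with BMP2ADV590, against 553, 635 and 657 CPM with BMP2ADV (log2 fold change -0.70 ± 0.09 SE, edgeR adjusted p = 1.56e-05). Ccn4 averaged 123 ± 15 CPM with BMP2ADV590 and 191 ± 22 CPM with BMP2ADV, and Ccn5 averaged 41.6 ± 8.8 CPM with BMP2ADV590 and 75.5 ± 10.9 CPM with BMP2ADV (SD, n = 3 each). Their log2 fold changes were -0.64 and -0.86.

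Fosl1 was the listed gene called with 2 hybrid plasmids. It had 28.9, 24.02 and 19.6 CPM with BMP2ADV20a and 15.7, 13.6 and 20.8 CPM with BMP2ADV590, against 39.6, 39.3 and 48.0 CPM with BMP2ADV. Both of these hybrid groups lay below every BMP2ADV library, with log2 fold changes of -0.80 ± 0.15 (SE; edgeR adjusted p = 0.0151) and -1.34 ± 0.16 (SE; edgeR adjusted p = 1.08e-05). The BMP2ADV148b libraries, at 33.0, 32.1 and 26.5 CPM, also lay below every BMP2ADV library, but that difference was not called. The BMP2ADV20a call was lost without BMP2ADV replicate 2 or 3 and without BMP2ADV20a replicate 2 or 3 (-0.67 to -0.84 on the log2 scale).

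Of the feedback genes in the list of targets, only Axin2 and Nkd1 are described here, and none of the tested ones was called with BMP2ADV590. Axin2 had 44 counts over the 12 libraries and was not tested, and Nkd1 averaged 1.74 ± 0.52 CPM with BMP2ADV590 and 2.13 ± 0.88 CPM with BMP2ADV (log2 fold change -0.30, edgeR adjusted p = 0.812). None of the 9 tested planar polarity genes was called with any hybrid plasmid, by edgeR at the adjusted threshold or at an unadjusted p under 0.05. Of all tested genes, 0.476% were called with BMP2ADV20a, 0.249% with BMP2ADV148b and 8.26% with BMP2ADV590. At an unadjusted p under 0.05 the shares were 9.87%, 8.43% and 21.2% in the same order. So short a list cannot show that this route was unchanged.

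**Figure D5:**
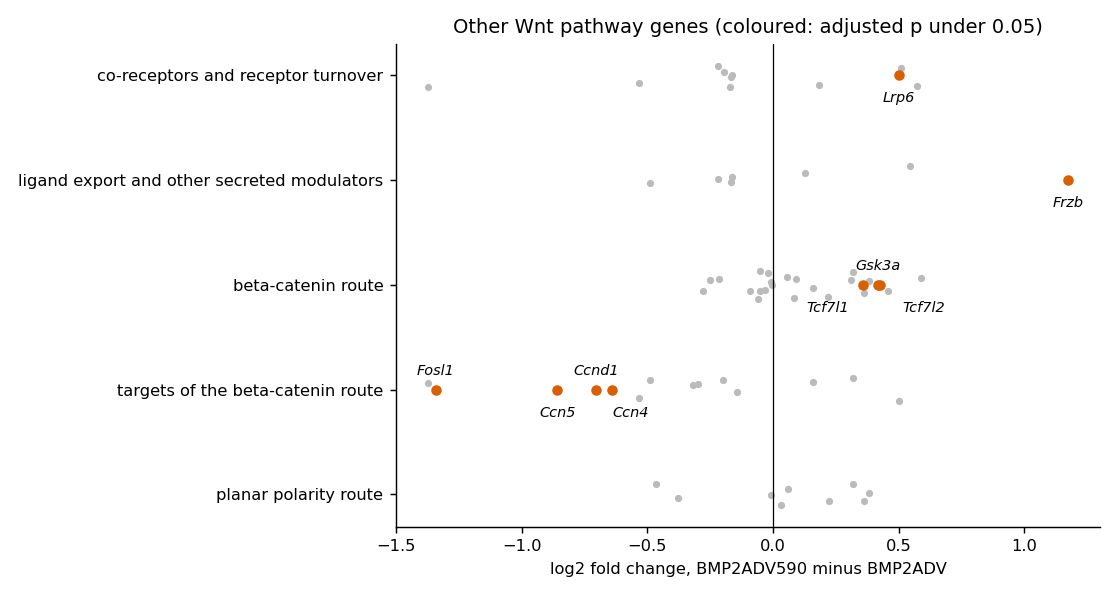
Log2 fold change of BMP2ADV590 minus BMP2ADV for the tested genes of the 5 other pathway lists, 1 point a gene; coloured and named genes had an adjusted p under 0.05. The 4 named targets lie between -1.34 and -0.64, and the 5 named genes of the other lists lie between 0.36 and 1.18.

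Summed markers of several cell types also separated some of these groups; the sums were not tested. The 6 chondrocyte markers summed to 5169 to 5808 CPM with BMP2ADV590 and 3636 to 4041 CPM with BMP2ADV20a, both above the 2865 to 3585 CPM of BMP2ADV, with Sox9 and Col2a1 making up most of the sum and Matn1 at 0 in all 3 groups; with BMP2ADV148b the sum was 2976 to 4082 CPM and overlapped BMP2ADV. The 5 epithelial markers, of which nearly all counts were Krt15, summed to 289 to 352 CPM with BMP2ADV20a, 226.3 to 378 CPM with BMP2ADV148b and 497 to 625 CPM with BMP2ADV590, each above the 166 to 225.6 CPM of BMP2ADV, though narrowly so with BMP2ADV148b, while Krt8 had no count. Osteoblast markers, 5 in number and mostly Runx2, summed to 53.1 to 60.4 CPM with BMP2ADV20a, 44.2 to 47.9 CPM with BMP2ADV148b and 45.2 to 50.5 CPM with BMP2ADV590, against 43.5 to 46.9 CPM with BMP2ADV.

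At far lower levels, the fat cell list summed to 8.42 to 14.8 CPM with BMP2ADV590 against 5.13 to 7.47 CPM with BMP2ADV, and the neural list to 16.1 to 21.9 CPM against 8.43 to 15.01 CPM in the same order. The endothelial list was lower, at 4.80 to 6.18 CPM with BMP2ADV590 against 7.12 to 10.6 CPM with BMP2ADV, and the macrophage list overlapped at 2.06 to 2.54 CPM against 1.47 to 2.66 CPM. The neural list was also above BMP2ADV with BMP2ADV20a, at 17.0 to 27.3 CPM. The part of these shifts in the results for the Wnt genes was not tested.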

How the data were processed

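The 12 QuantSeq 3' mRNA libraries (Lexogen, forward kit) came from 4 groups of 3. The authors deposited raw counts per Ensembl gene; per the submitters' processing notes, FastQC 0.11.5, STAR 2.5.2a, HTSeq 0.6.0 and build GRCm38 were used, while no source used here gives the strand setting, counting mode or annotation release. Records that name no gene (52.2% to 54.4% of each library's total) stayed out of library sizes and tests. Counts on genes were 9236431 to 14727288 per library.

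Symbols came from the GENCODE M21 annotation (47224 of 47643 IDs). Genes passing filterByExpr (minimum count 10) were fitted in edgeR 4.0.16 (R 4.3.3) with TMM scaling and 1 mean per group over all 12 libraries; the quasi-likelihood test was adjusted by Benjamini-Hochberg over 13229 genes and called at 0.05. SE and 95% intervals come from that fit. The common biological coefficient of variation was 0.117. The script was tested on simulated data. Alternatives were RLE size factors, no filter, DESeq2 1.42.0, a replicate block, a fit of the 2 groups compared, and leaving out each library.

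Members and gene lists were chosen with earlier results of these data known. Values per library are given for members called in any comparison and for the 3 most abundant of each family; up to 4 called genes of each other list are named, with Axin2, Lef1, Nkd1 and Ctnnb1, some by group means or totals; Fzd1, Fzd7, Fzd6, Wnt4 and Fzd3 were added after their values were seen. Intervals and limits cover the spread between these libraries or counting error only.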

Additional observations from a re-analysis of the deposited data

Results flagged for a closer look

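The Sfrp2 level differed between hybrid plasmids by a direct test: the log2 difference of BMP2ADV590 minus BMP2ADV20a was 0.63 (edgeR adjusted p = 0.0318), with all 3 BMP2ADV590 libraries above all 3 BMP2ADV20a libraries. The Fzd9 level differed likewise, with a log2 difference of BMP2ADV590 minus BMP2ADV148b of 0.64 (edgeR adjusted p = 0.00491) and no overlap between the libraries.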

How the results depend on the processing

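The 4 members called with BMP2ADV590 against BMP2ADV numbered 4 under RLE size factors, no filter, DESeq2, the replicate block and the fit of 2 groups, and 1 to 4 with a library left out; the lowest count was without BMP2ADV replicate 3. Against BMP2ADV, members called with BMP2ADV148b numbered 2 with no filter, 2 by DESeq2 and 0 with the replicate block (0 to 1 with a library left out), and with BMP2ADV20a 2 with no filter (0 to 1). Between BMP2ADV590 and BMP2ADV148b they numbered 4 with no filter, 2 by DESeq2 and 2 in the fit of 2 groups (0 to 2), and between BMP2ADV590 and BMP2ADV20a 2 with no filter and 0 with the replicate block (0 to 2). Other pathway genes called with BMP2ADV20a numbered 2 with no filter and 2 in the fit of 2 groups (0 to 2); with BMP2ADV590 they numbered 6 to 10 with a library left out. Several log2 fold changes against BMP2ADV that were not called changed sign with a library left out. Wnt5a ranged from -0.0584 to 0.296 with BMP2ADV20a, -0.25 to 0.11 with BMP2ADV148b and -0.282 to 0.0789 with BMP2ADV590. Fzd2 ranged from -0.0202 to 0.0176 with BMP2ADV148b and -0.0022 to 0.0471 with BMP2ADV590, and Sfrp2 with BMP2ADV148b from -0.0028 to 0.32. With BMP2ADV590, Fzd7 ranged from -0.45 to 0.26 (-0.0248 with the replicate block). Fzd1 with BMP2ADV590, at 0.35 with every library, ranged from -0.13 to 0.71. The cause of these changes was not tested. Same-numbered libraries did not deviate together (correlations -0.113 to 0.0715 over 18 pairs, none above 0.1), so the replicate block is given here only. Over all genes, calls against BMP2ADV numbered 33 with BMP2ADV148b (126 with no filter, 82 by DESeq2, 14 with the replicate block) and 63 with BMP2ADV20a (184, 127 and 36 in the same order, 145 in the fit of 2 groups); BMP2ADV590 against BMP2ADV20a gave 287 (519 with no filter, 172 with the block) and BMP2ADV148b against BMP2ADV20a 74 (137 with no filter). With a library left out, calls over all genes ranged, against BMP2ADV, from 3 (without BMP2ADV replicate 3) to 60 (without BMP2ADV590 replicate 2) with BMP2ADV148b, from 18 (without BMP2ADV replicate 2) to 108 (without BMP2ADV590 replicate 2) with BMP2ADV20a and from 565 (without BMP2ADV replicate 3) to 1115 with BMP2ADV590, which gave 1093 with every library; they ranged from 64 (without BMP2ADV20a replicate 1) to 489 (without BMP2ADV590 replicate 2) for BMP2ADV590 against BMP2ADV20a, from 241 (without BMP2ADV148b replicate 1) to 656 for BMP2ADV590 against BMP2ADV148b (586 with every library), and from 22 (without BMP2ADV20a replicate 1) to 93 for BMP2ADV148b against BMP2ADV20a. The shares of all genes called rest on these counts.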
